A study of Mus musculus with 7 samples.

Results

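The ion channel, ion pump and aquaporin genes described here are 64 of the 7091 genes in the deposited expression table of mouse epidermis. They were chosen by gene symbol alone, as all listed members of the potassium channel (Kcn), voltage-gated and epithelial sodium channel (Scn, Scnn), voltage-gated calcium channel (Cacn), TRP, chloride channel (Clcn, Clca, Ano), aquaporin (Aqp), store-operated (Orai, Stim), ATP-gated (P2rx) and Piezo families, together with the calcium pumps (Atp2) and the sodium-potassium pump (Atp1). RNA was sequenced in bulk from epidermis separated from telogen skin (the resting phase of the hair cycle) of 7 mice, each giving 1 library. The KA mice (K14-CreERT;ABCA12-cKO, n = 4, with males as KA 1 and KA 2 and females as KA 3 and KA 4) carried a conditional Abca12 allele and CreERT, a recombinase that tamoxifen switches on, under the K14 promoter of basal keratinocytes. The controls (ABCA12-c/c, n = 3, with control 1 and control 3 female and control 2 male) carried the conditional allele without CreERT, so deletion of this lipid transporter gene and the presence of an active recombinase cannot be told apart. All mice, controls included, received tamoxifen at 8 weeks of age, 1 mg per 40 g of body weight on each of 3 days, and the tissue was taken 2 weeks later.

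The table lists only genes that the authors had called different, with an adjusted p below 0.05, which are 36.5% of the 19407 genes their adjustment ran over. Every member was therefore already called, and a member missing from the list is not analysed here. GENCODE M21 annotates 229 protein-coding genes of these families and the table holds 63 of them (27.5%), against 29.3% of all protein-coding genes, and the remaining member is the antisense transcript Kcnmb4os2. Coverage was 3 of 5 store-operated genes, 5 of 9 calcium pump genes and 7 of 17 sodium channel genes, and 18 of 94 potassium channel genes. Neither of the 2 Piezo genes was listed. Levels are given as normalised reads, the authors' counts divided by 1 size factor per library, and log2 fold changes are KA over control from a refit of the counts with edgeR's quasi-likelihood test, whose adjusted p-values describe these libraries and are not independent of the authors' selection.

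Listed reads came to between 9590718 and 12761458 per library, which is part of each library and not its depth. The keratinocyte markers were abundant in every library: the 4 of 8 that were listed summed to 404800 to 452800 normalised reads in controls and 965100 to 1049000 in KA, with Krt1, Krt5 and Krt14 higher and Dsc3 lower. No marker of skeletal muscle (0 of 11), fibroblasts (0 of 7) or mast cells (0 of 7) was listed. Markers of Langerhans and antigen-presenting cells rose in 7 of 7 cases (sums of 20230 to 27650 in controls and 39270 to 60620 in KA), as did 4 of 6 listed sebocyte markers. Both listed melanocyte markers and 3 of 4 listed T cell markers fell. So did Mbp, the only listed marker of 8 for nerve and Schwann cells, and Krt8, the only listed marker of 6 for Merkel cells. Myeloid and neutrophil markers went both ways (4 of 7 higher, 3 lower), as did hair follicle markers (2 of 5 higher, 2 lower), with Krt17 and Krt79 higher and Krt15 and Lgr5 lower. Single low markers of smooth muscle (Acta2, 18.9 to 26.8 normalised reads in controls and 46.2 to 129 in KA), endothelium (Pecam1, 11.4 to 17.6 and 34.5 to 55.4) and adipocytes (Cidec, 1.89 to 9.28 and 15.6 to 41.5) rose. In bulk tissue, fewer cells of a type and less RNA per cell cannot be told apart. The animal numbers form 2 runs whose meaning is not given: within 4853 to 4857 (2 controls, 2 KA) the groups did not overlap for 64 of 64 members, and within 4875 to 4877 (1 control, 2 KA) for 63 of 64, against 99.2% and 97.4% of all listed genes.

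Keratinocytes keep a steep gradient of calcium across the living epidermis, low around basal cells and high in the granular layer, and this gradient is known to steer their differentiation and the release of barrier lipids. It is held by pumps that clear calcium into the endoplasmic reticulum, the Golgi apparatus or out of the cell, by release channels and by store-operated entry, in which STIM proteins sense an emptying store and open ORAI channels. Aquaporin-3 carries water and glycerol through the keratinocyte membrane and is known for its part in skin hydration, while the sodium-potassium pump, potassium channels, sodium channels and chloride channels set membrane voltage and cell volume.

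Most of the listed channel and pump genes were lower in KA epidermis. By the authors' deposited table, 40 of 64 members were lower (62.5%, against 47.4% of all listed genes) and 24 higher (52.6% of all listed genes were higher). In the refit, 62 members had enough reads to be tested: 38 fell (61.3%, against 47.5% of all tested genes) and 21 rose (33.9%, against 44.0%). Together 95.2% of tested members passed the threshold, against 91.5% of all tested genes, and the members that did not pass were Trpv3, Kcnab2 and Kcnk6. Their median log2 fold change was -0.83, against 0.22 over all tested genes, and the median size of the change was 1.33, against 0.86. A change of at least 1 on the log2 scale was found for 42 members (67.7%, against 41.5% of all tested genes), of which 27 fell and 15 rose. Members had fewer reads, with a median of 165 normalised reads against 460 for all listed genes. A gene with few reads needs a larger fold to be called and so listed. The part of this in the larger sizes was not tested. The factors used here were computed on the listed genes alone, all already called different, so the balance of rises and falls depends on them. The authors' size factors shifted the median of all genes up by 0.13 on the log2 scale. With them 38 members fell and 24 rose, or 38.7% of the passing members higher, against 52.5% of all passing genes. With the factors used here these shares were 35.6% and 48.1%. Trpv3, Kcnab2 and Kcnk6 passed as higher with the authors' factors.

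**Figure D1:**
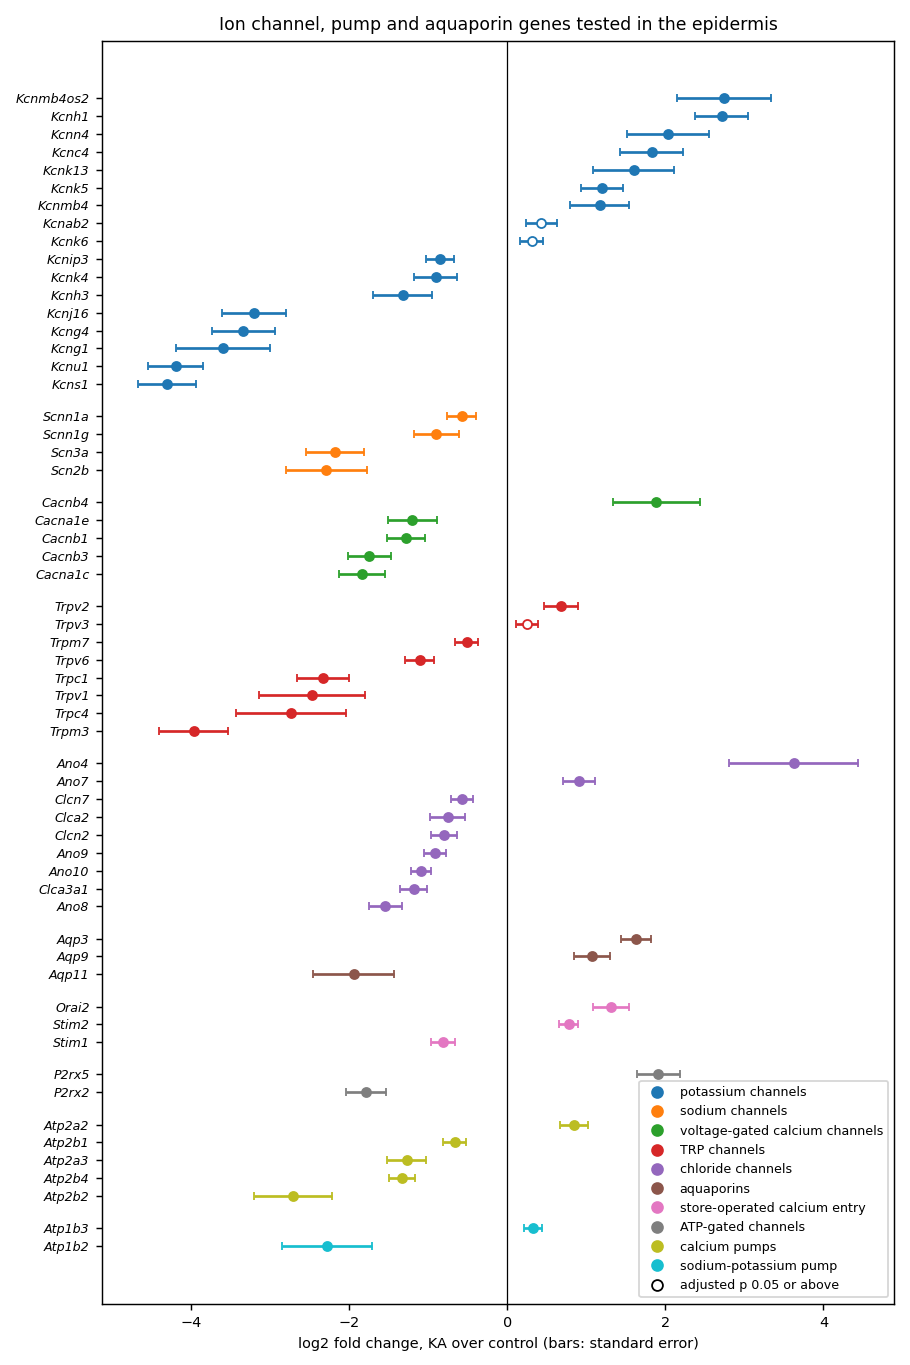
Log2 fold change of KA over control for 58 of the 62 tested members, grouped by class, with bars for the standard error and open circles for an adjusted p of 0.05 or above. Values run from -4.30 for Kcns1 to 3.63 for Ano4, and most sodium, voltage-gated calcium, TRP and chloride channel and calcium pump genes lie left of 0.

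KA and control libraries did not overlap for 60 of 64 members (93.8%, against 93.3% of all listed genes). The exceptions were Trpm7, Kcnn2, Scnn1a and Scnn1g. Among the females alone 63 members did not overlap (95.6% of listed genes did not). Among the males, where control 2 is the only control, 64 of 64 did not (99.6%). The KA males have animal numbers in the run 4853 to 4857 and the KA females in the run 4875 to 4877. Splits by sex and by run thus differ only in the place of control 1 and are not separate checks. KA 3 was the KA library nearest to the controls for 31 of the 59 members that passed, or 52.5%, against 49.4% of all genes that passed. Members took a like share of listed reads in both groups, 0.685% to 0.774% in controls and 0.727% to 0.822% in KA.

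**Figure D2:**
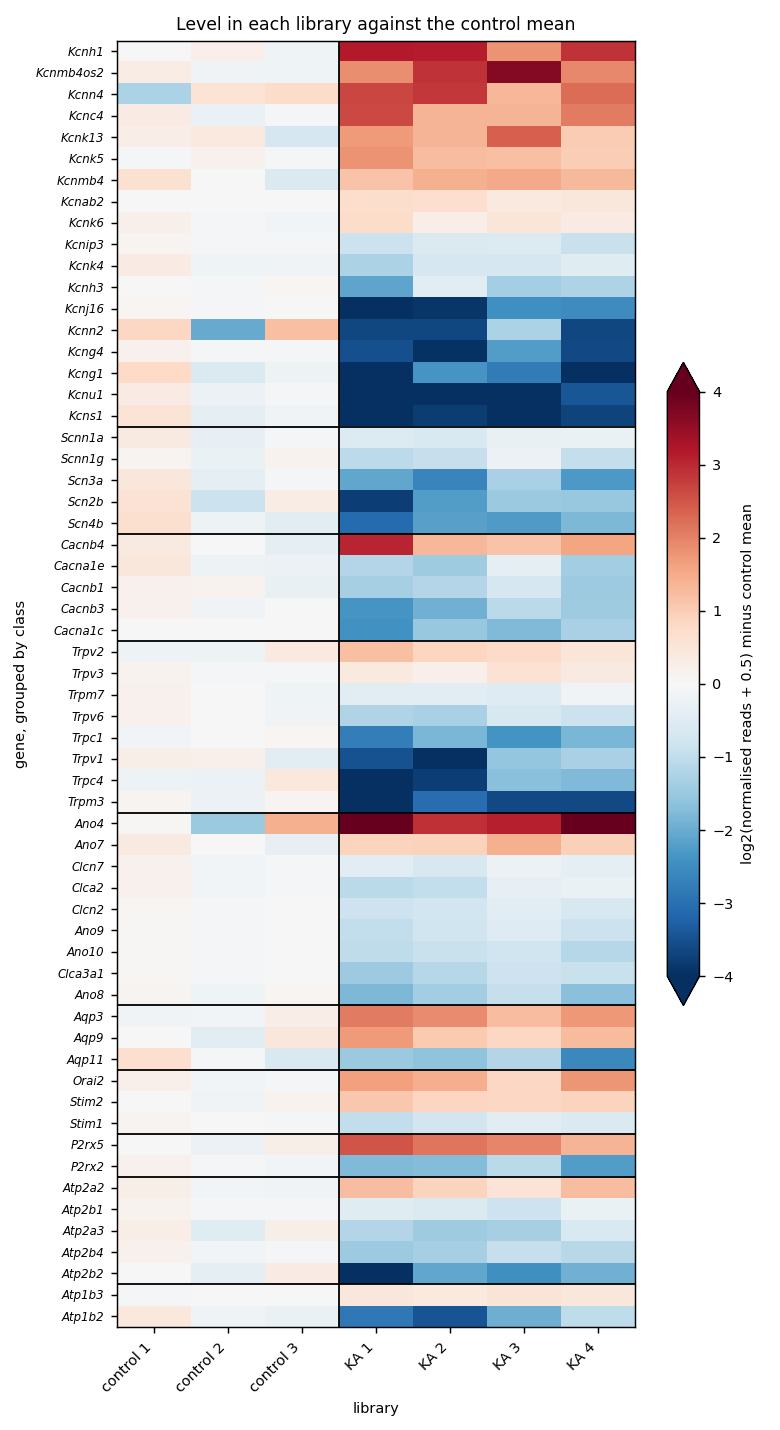
Level of 60 of the 64 members in each library, as log2(normalised reads + 0.5) minus the control mean, grouped by class with horizontal lines between classes and a vertical line between control and KA libraries. Colours stop at 4 and -4 on the log2 scale. For most members the 4 KA columns share a colour, and KA 3 is often the palest of them.

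Per kilobase of the deposited gene length, the most abundant members in controls were Atp1b3 (5490 normalised reads per kilobase), Ano9 (2464) and Aqp3 (2237). That length need not be that of the transcripts expressed. In KA epidermis Aqp3 stood first at 7603 and Atp1b3 next at 7531, and Ano9 was at 1429. At the other end, 2 members were below 1 normalised read per kilobase in controls and 9 in KA, so many of the largest fold changes below belong to genes with few reads.

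Among the water channels, Aqp3 and Aqp9 rose and Aqp11 fell. Aqp3 encodes aquaporin-3, the main water and glycerol channel of basal keratinocytes. Its levels, in the order of the sample numbers as in all lists below, were 3677, 3720 and 4875 normalised reads in the controls and 17199, 15182, 9631 and 13614 in the KA libraries. Every KA library was above every control, and KA 3 was the lowest of the 4. Mean levels were 4091 ± 680 (SD, n = 3) and 13906 ± 3206 (SD, n = 4), and the gene rose by 1.63 ± 0.19 on the log2 scale (SE, adjusted p = 7.06e-05). Aqp9, another channel that passes glycerol as well as water, stood at 351, 269 and 487 in controls and 1170, 744, 643 and 858 in KA. The groups did not overlap, and the log2 fold change was 1.07 ± 0.23 (SE, adjusted p = 0.00192). Aqp11, an aquaporin of the endoplasmic reticulum, was a low gene with 9.62 to 23.7 normalised reads in controls and 2.08 to 6.27 in KA, and it fell by 1.94 ± 0.51 on the log2 scale (SE, adjusted p = 0.0053). The Aqp3 gene lies at chr4:41092722-41098183 on the minus strand of GRCm38, the assembly also called mm10.

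The upstream sequences of Aqp3, Stim1 and Stim2 are shown because these genes carry the water result and the store-operated result described below. Each is the 250 bases before the RefSeq start on GRCm38.p6, written 5′ to 3′ in the direction of the gene. Capitals mark matches on either strand to the letters of a GC box (GGGCGG, or CCGCCC on the other strand) or of a TATA box (TATAAA). The Aqp3 stretch is chr4:41098184-41098433 on the minus strand, directly before the gene start of the table. The Stim1 stretch is chr7:102267569-102267818 and the Stim2 stretch chr5:53998273-53998522, both on the plus strand, and their RefSeq starts lie 13 and 24 bases downstream of the starts in the table.
Aqp3: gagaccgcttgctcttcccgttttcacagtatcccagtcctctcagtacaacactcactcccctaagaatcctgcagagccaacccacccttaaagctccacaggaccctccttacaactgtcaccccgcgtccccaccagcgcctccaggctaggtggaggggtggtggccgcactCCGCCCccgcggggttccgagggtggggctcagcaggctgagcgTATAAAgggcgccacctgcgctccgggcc
Stim1: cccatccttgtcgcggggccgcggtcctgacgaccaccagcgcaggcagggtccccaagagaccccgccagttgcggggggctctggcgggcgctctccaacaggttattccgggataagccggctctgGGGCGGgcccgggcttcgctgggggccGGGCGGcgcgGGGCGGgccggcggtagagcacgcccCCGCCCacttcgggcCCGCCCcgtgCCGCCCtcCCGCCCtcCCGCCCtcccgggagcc
Stim2: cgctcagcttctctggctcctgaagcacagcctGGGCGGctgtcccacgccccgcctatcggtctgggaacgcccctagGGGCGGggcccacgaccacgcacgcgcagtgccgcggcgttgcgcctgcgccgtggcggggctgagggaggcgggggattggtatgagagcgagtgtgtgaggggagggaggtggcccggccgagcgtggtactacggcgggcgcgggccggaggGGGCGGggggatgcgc

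The Aqp3 stretch held 1 GC box and a TATA box 29 to 24 bases before the start, the Stim1 stretch 8 GC boxes and the Stim2 stretch 3. Over the 47 members matched in the RefSeq promoter table, 25 held a GC box (53.2%), against 32.7% of all 32817 promoters of the same length. These were 11 of 16 members that rose (68.8%) and 13 of 28 that fell (46.4%). TATAAA was found for 2 of 47 (Aqp3 and Trpc4, 4.26%), against 12.4% of all promoters, and the AP-1 letters TGANTCA for 2 of 47 (Kcnip3 and Trpv3, 4.26%), against 6.75%. The background is all promoters and not those of listed genes alone, whose shares are not given here. A difference from it is thus no trait of the members. The matches describe letters in these windows and were read no further.

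In store-operated calcium entry, Stim2 and Orai2 rose and Stim1 fell. Stim1 encodes the main sensor of calcium in the endoplasmic reticulum (chr7:102267806-102437319), and its levels were 3712, 3375 and 3254 normalised reads in controls and 1740, 2021, 2490 and 2319 in KA. All KA libraries were below all controls, with a log2 fold change of -0.82 ± 0.15 (SE, adjusted p = 0.000843). Stim2, a sensor that responds to smaller losses of store calcium (chr5:53998499-54121057), stood at 593, 545 and 662 in controls and 1258, 1091, 1065 and 1103 in KA. The KA values lay close together and above the controls, with a log2 fold change of 0.78 ± 0.12 (SE, adjusted p = 0.000291). Orai2, a pore subunit that the STIM proteins open, stood at 148, 121 and 122 in controls and at 402, 358, 229 and 437 in KA, again without overlap (1.31 ± 0.23, SE, log2, adjusted p = 0.000649).

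The ratio of Stim2 to Stim1 within a library does not depend on the scaling between libraries. Its log2 value was -2.65, -2.63 and -2.30 in controls and -0.47, -0.89, -1.22 and -1.07 in KA, a difference of 1.61 (two-sided exact permutation test over 35 arrangements, p = 0.0286, the smallest this design can give, and 0.0476 adjusted over 5 pairs). Per base of the deposited gene length, Stim2 made up 24.4%, 24.6% and 29.1% of the 2 sensors together in controls and 59.4%, 52.2%, 46.4% and 49.0% in KA. That length (10371 bases for Stim1, 5133 for Stim2) need not be that of the transcripts expressed, so these shares are not shares of molecules. Undivided, Stim2 remained below Stim1, with means of 600 and 3447 normalised reads in controls and 1129 and 2143 in KA. The share was higher in each KA library than in any control. Every KA library was above the controls for Stim2 and below them for Stim1, so the ratio had to separate. Its p-value was thus fixed and adds nothing to the results of the single genes. All 5 pairs consist of genes already chosen as different on these libraries, and 4 of them are given here.

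Of the 5 calcium pump genes, 1 rose and 4 fell (80.0%, against 47.5% of all tested genes). Atp2a2 encodes SERCA2, the pump that fills the endoplasmic reticulum in keratinocytes and is mutated in Darier disease. Its levels were 3483, 2772 and 2693 normalised reads in controls and 6921, 5468, 4310 and 6925 in KA. The groups did not overlap, and the log2 fold change was 0.85 ± 0.18 (SE, adjusted p = 0.00177). Atp2a3, the related pump SERCA3, moved the other way, with 462, 276 and 450 in controls against 172, 143, 154 and 250 in KA (-1.27 ± 0.25, SE, log2, adjusted p = 0.00112). No KA library reached the lowest control.

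The plasma membrane calcium pumps, which carry calcium out of the cell, fell in 3 of 3 listed cases. Of all tested genes 47.5% fell. Atp2b4 was the most abundant, with 6722, 5514 and 5652 normalised reads in controls and 2167, 2343, 3132 and 2761 in KA. Its log2 fold change was -1.33 ± 0.16 (SE, adjusted p = 9.11e-05), and all KA libraries were well below the controls. Atp2b1, the widely expressed form, fell less, with 1650, 1456 and 1415 in controls against 1071, 1015, 839 and 1250 in KA (-0.67 ± 0.15, SE, log2, adjusted p = 0.00211). Atp2b2, known from hair cells and neurons, was low, at 19.6 to 32.1 in controls and 0.989 to 6.23 in KA (-2.71 ± 0.49, SE, log2, adjusted p = 0.000759). The log2 ratio of Atp2b1 to Atp2b4 was -1.98 on average in controls and -1.32 in KA, a difference of 0.67 that did not pass (exact permutation test, adjusted p = 0.0714), with KA 3 at -1.90 beside the controls.

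**Figure D3:**
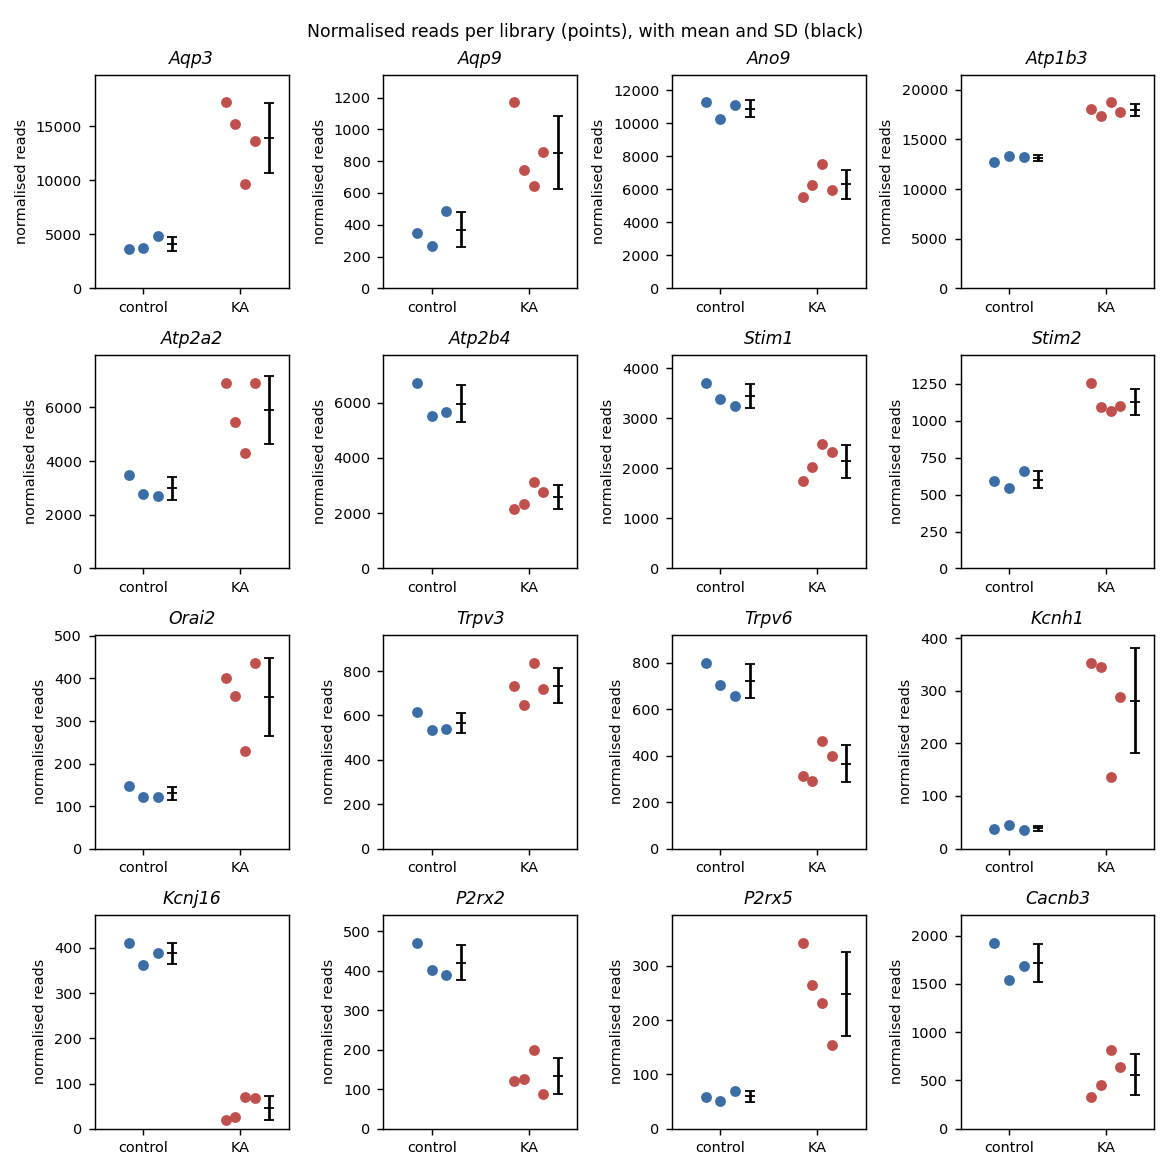
Normalised reads of 16 members in each library, with points for libraries, blue for control and red for KA, and black marks for the mean and SD of each group. The groups are apart in each panel, with Trpv3 closest, where the highest control is at 617 and the lowest KA library at 646.

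TRP channels, cation channels that open to heat, touch, lipids or emptied stores, fell in 6 of 8 cases and rose in 1. The share that fell was 75.0%, against 47.5% of all tested genes. Trpv6, a calcium-selective channel of epithelia, had 801, 706 and 656 normalised reads in controls and 314, 292, 463 and 398 in KA. It was lower in every KA library (-1.11 ± 0.19, SE, log2, adjusted p = 0.000518). Trpv3, the warmth-sensing channel of keratinocytes, was at 617, 536 and 541 in controls and 735, 646, 838 and 717 in KA. The 4 KA values were above the controls, but the log2 fold change of 0.24 ± 0.14 did not pass (SE, adjusted p = 0.111), while the authors' deposited table gives 0.38 with an adjusted p of 0.0262. Trpv2, a channel also known from macrophages, was at 129, 129 and 192 in controls and 337, 266, 249 and 206 in KA. It rose by 0.68 ± 0.21 on the log2 scale (SE, adjusted p = 0.0122), a call that was lost without control 2 (adjusted p = 0.0529). Beside it, 4 of 7 listed markers of myeloid cells and neutrophils rose and 3 fell, with sums of 872 to 1145 normalised reads in controls and 1715 to 2108 in KA. Csf1r, Cxcr2, Lyz2 and Cd14 were the higher ones, with Cxcr2 at 0, 1.03 and 4.01 in controls and 386, 220, 220 and 289 in KA, while the macrophage markers Adgre1 and Cd68 and the receptor gene Fcgr3 were lower, and the part of these cells in the Trpv2 result was not tested. Trpv1, the heat and capsaicin receptor best known from pain neurons, had few reads, 12.03 to 18.9 in controls and 0 to 6.23 in KA (-2.47 ± 0.67, SE, log2, adjusted p = 0.00611).

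Trpc1 and Trpc4 form channels linked to receptor and store signals. Trpc1 stood at 53.0, 57.7 and 60.9 normalised reads in controls and 7.91, 15.8, 10.4 and 15.6 in KA, and Trpc4 at 57.7 to 92.2 in controls and 0 to 20.9 in KA. Both were lower in every KA library, with log2 fold changes of -2.33 ± 0.33 (SE, adjusted p = 0.000193) and -2.74 ± 0.69 (SE, adjusted p = 0.00469). Trpm3, a heat and steroid sensor, was at 74.8, 58.8 and 74.6 in controls and 0.989, 7.89, 5.22 and 5.19 in KA, and its log2 fold change of -3.97 ± 0.44 (SE, adjusted p = 5.97e-05) was the most negative of the TRP genes tested. Trpm7, a channel with its own kinase domain that carries magnesium and calcium, was at 1342, 1195 and 1051 in controls and 869, 896, 825 and 1089 in KA. It fell by 0.51 ± 0.15 on the log2 scale (SE, adjusted p = 0.00755), although KA 4 lay above control 3. Mbp, the only listed marker of 8 for nerve and Schwann cells, fell beside Trpv1, from 1578 normalised reads on average to 963. The part of this in the Trpv1 result was not tested.

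Genes of voltage-gated calcium channels fell in 4 of 5 cases (80.0%, against 47.5% of all tested genes). The pore subunit Cacna1c (the L-type channel Cav1.2) was at 95.6, 97.9 and 98.6 normalised reads in controls and 17.8, 33.8, 28.2 and 39.5 in KA, and the pore subunit Cacna1e (the R-type channel Cav2.3) at 156 to 255 and 68.7 to 142. Neither overlapped between groups, and both fell, with log2 fold changes of -1.84 ± 0.30 (SE, adjusted p = 0.000404) and -1.20 ± 0.31 (SE, adjusted p = 0.00463). The auxiliary beta subunits, which bring the pore to the membrane, were split. Cacnb3, the most abundant gene of the class, was at 1926, 1536 and 1690 in controls and 333, 450, 817 and 638 in KA (-1.74 ± 0.28, SE, log2, adjusted p = 0.000428). Cacnb1 fell with it, with a range of 191 to 264 in controls and 85.1 to 147 in KA (-1.27 ± 0.24, SE, log2, adjusted p = 0.000944). Cacnb4 rose from 9.47, 7.22 and 5.61 to 63.3, 19.1, 16.7 and 22.8 (1.89 ± 0.55, SE, log2, adjusted p = 0.00873), with KA 1 far above the other KA libraries, and its log2 fold change was 1.29 without KA 1. Of its exonic bases, 16.0% overlap A430018G15Rik on the opposite strand.

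The ATP-gated channels, which open to ATP released from stressed or wounded cells, moved apart. P2rx2 was at 470, 401 and 390 normalised reads in controls and 122, 125, 198 and 88.2 in KA, and P2rx5 at 58.7, 50.5 and 69.8 in controls and 342, 265, 232 and 154 in KA. P2rx2 was lower in every KA library (-1.79 ± 0.25, SE, log2, adjusted p = 0.00019) and P2rx5 higher in every one (1.91 ± 0.27, SE, log2, adjusted p = 0.000204). Counted over all 23 members that carry or sense calcium, 16 fell (69.6%, against 47.5% of all tested genes) and 6 rose (26.1%, against 44.0%), with Trpv3 not passing. Their median log2 fold change was -1.20, against 0.22 over all tested genes.

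P2rx5 is one of 4 members that lie together on chromosome 11. Atp2a3, P2rx5, Trpv1 and Trpv3 fill chr11:72961169-73300363, with gaps of 167 kb from Atp2a3 to P2rx5, 61.6 kb from P2rx5 to Trpv1 and 6.14 kb from Trpv1 to Trpv3. Atp2a3 and Trpv1 fell, P2rx5 rose, and Trpv3 did not pass. The sodium channel genes Scn2b and Scn4b are 8.32 kb apart on chromosome 9, and Clca3a1 and Clca2, which both fell, 309 kb apart on chromosome 3. No other pair of members lay within 400 kb, except Kcnmb4 and its antisense transcript.

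The sodium-potassium pump, which builds the sodium and potassium gradients of the cell, rose in its beta subunit Atp1b3 and fell in its beta subunit Atp1b2. Atp1b3 was at 12734, 13352 and 13263 normalised reads in controls and 18110, 17342, 18735 and 17779 in KA, tight and apart in both groups. Its log2 fold change of 0.32 ± 0.11 (SE) passed with an adjusted p of 0.0188, but not without control 2 (0.0526) nor with the adjustment taken over all 19407 genes (0.054). Atp1b2, known from glia, was low, with 14.4 to 23.7 in controls and 1.13 to 8.31 in KA (-2.28 ± 0.57, SE, log2, adjusted p = 0.00395). Leaving out KA 4, the highest KA library, moved this to -2.94.

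Of the within-library ratios, that of Aqp3 to Aqp9 was 3.39, 3.79 and 3.32 on the log2 scale in controls and 3.88, 4.35, 3.90 and 3.99 in KA. Its mean shifted from 3.50 to 4.03, a difference of 0.53. The exact permutation test gave p = 0.0286, the smallest this design can give, and 0.0476 adjusted over 5 pairs. That adjusted value is below 0.05 only because other pairs also had the smallest p. Among them is Stim2/Stim1, whose p-value was fixed.

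**Figure D4:**
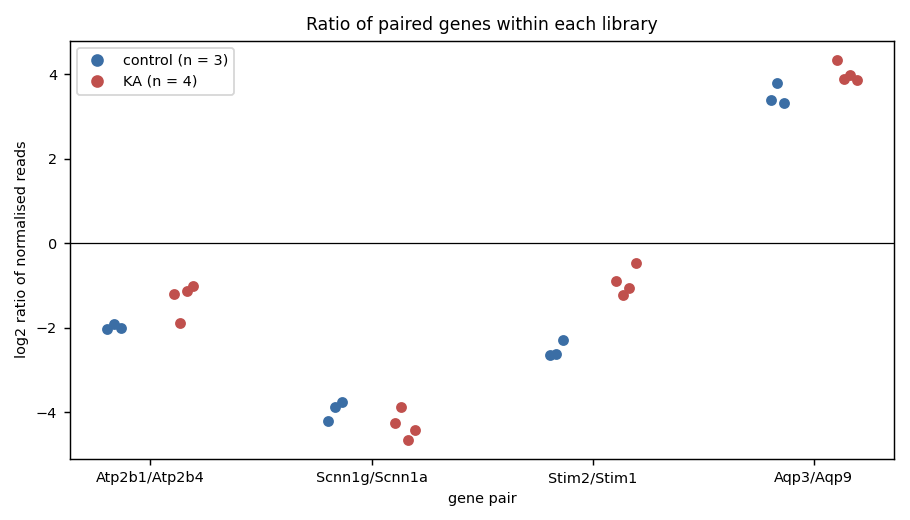
Log2 ratio of normalised reads of 2 genes within each library, for 4 planned pairs with both genes in the table, with blue points for the 3 control and red for the 4 KA libraries. Stim2/Stim1 and Aqp3/Aqp9 are apart between groups, while KA 3 lies beside the controls for Atp2b1/Atp2b4 and Scnn1g/Scnn1a overlaps.

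Sodium channel genes fell in 5 of 6 tested cases (83.3%, against 47.5% of all tested genes). The epithelial sodium channel, which takes up sodium through the outer membrane of epithelia, was represented by its alpha subunit Scnn1a and its gamma subunit Scnn1g. Scnn1a was at 1537, 955 and 1165 normalised reads in controls and 822, 788, 973 and 1004 in KA, and Scnn1g at 83.3, 64.9 and 85.8 in controls and 37.6, 40.6, 65.8 and 39.5 in KA. Both overlapped between groups and both passed, with log2 fold changes of -0.58 ± 0.18 (SE, adjusted p = 0.0116) and -0.90 ± 0.29 (SE, adjusted p = 0.0127). The Scnn1a call was lost without control 1, its highest library (-0.33, adjusted p = 0.075). The ratio of Scnn1g to Scnn1a differed by -0.37 on the log2 scale and did not pass (exact permutation test, adjusted p = 0.143).

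Voltage-gated sodium channel genes had few reads. The pore gene Scn3a fell from 128, 71.1 and 89.0 normalised reads to 21.8, 14.6, 37.6 and 18.7 (-2.18 ± 0.36, SE, log2, adjusted p = 0.000489). No KA library reached the lowest control. The auxiliary beta subunit gene Scn2b fell from 89.0, 33.0 and 73.0 to 3.96, 12.4, 20.9 and 20.8 (-2.29 ± 0.51, SE, log2, adjusted p = 0.00229), also without overlap. Scn4b, another beta subunit gene next to Scn2b, was too low to test, with 8.82 to 18.9 in controls and at most 3 counts in any KA library, and was at least 4.03-fold lower against a floor of 3 counts per library.

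Potassium channel genes were split, with 8 higher, 8 lower and 2 not passing among 18 tested. That is 44.4% each way, near the 44.0% higher and 47.5% lower of all tested genes. The largest rise in a potassium channel gene that codes for a pore was in Kcnh1, a voltage-gated channel of the ether-à-go-go family, which was at 37.9, 44.3 and 34.5 normalised reads in controls and 353, 346, 137 and 289 in KA. Every KA library was above every control, KA 3 by the least, and the log2 fold change was 2.71 ± 0.33 (SE, adjusted p = 9.31e-05). Kcnn4, a channel opened by calcium that is also known from activated T cells and red cells, rose from 2.84, 11.3 and 12.8 to 51.4, 56.3, 19.8 and 37.4 (2.03 ± 0.51, SE, log2, adjusted p = 0.0043). Beside it, the summed T cell markers were at 921 to 1242 normalised reads in controls and 630 to 742 in KA, those of Langerhans and antigen-presenting cells were higher in every KA library, and the part of either in the Kcnn4 result was not tested. Kcnc4, which encodes the rapidly inactivating channel Kv3.4, rose from 18.9, 12.4 and 14.4 to 96.0, 39.4, 39.7 and 65.4 (1.83 ± 0.40, SE, log2, adjusted p = 0.00207). Two-pore channels set the resting potential, and of these Kcnk5 (1.20 ± 0.27, SE) and Kcnk13 (1.60 ± 0.51, SE) rose, Kcnk4 fell (-0.90 ± 0.27, SE), and Kcnk6 did not pass (0.31 ± 0.15, SE, adjusted p = 0.0654). The Kcnk13 call was lost without control 3 (adjusted p = 0.0509) and the Kcnk4 call without control 1 (adjusted p = 0.0561).

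Among the tested genes of the class, the largest falls were in 3 genes of silent subunits and in Kcnu1 and Kcnj16. Kcns1, Kcng1 and Kcng4 encode electrically silent subunits that form no channel of their own and alter Kv2 channels. Kcns1 went from 167, 87.6 and 104 normalised reads to 5.93, 7.89, 4.18 and 8.31 (-4.30 ± 0.37, SE, log2, adjusted p = 1.56e-05), the most negative log2 fold change of all tested members. Kcng4 went from 106, 90.7 and 89.0 to 7.91, 5.63, 19.8 and 7.27 (-3.34 ± 0.40, SE, log2, adjusted p = 8.5e-05), and Kcng1 was at 16.5 to 43.6 in controls and 0.989 to 4.51 in KA (-3.59 ± 0.59, SE, log2, adjusted p = 0.000449). The groups did not overlap for any of the 3. Kcnu1, a channel opened by alkaline pH and best known from sperm, fell from 132, 89.7 and 99.4 to 3.96, 5.63, 6.27 and 9.34 (-4.19 ± 0.35, SE, log2, adjusted p = 1.4e-05). Kcnj16, an inward rectifier subunit sensitive to pH and known from kidney, fell from 411, 363 and 389 to 18.8, 25.9, 70.0 and 67.5 (-3.21 ± 0.40, SE, log2, adjusted p = 0.000131).

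The remaining potassium channel genes had smaller changes or few reads. Kcnh3, a relative of Kcnh1, fell by 1.32 ± 0.37 (SE, adjusted p = 0.00671) and Kcnip3, a calcium-binding partner of Kv4 channels, by 0.85 ± 0.18 (SE, adjusted p = 0.00165) on the log2 scale. Kcnab2, a beta subunit of Kv1 channels, stood at 78.4 to 80.5 in controls and 103 to 130 in KA and did not pass (0.43 ± 0.20, SE, log2, adjusted p = 0.0579). Kcnn2, a small-conductance channel opened by calcium, was not tested: it had 10.4, 1.03 and 13.6 normalised reads in controls and 2.09 in KA 3, with no read in KA 1, 2 and 4, so the groups overlapped and its mean was at least 2.65-fold lower against a floor of 3 counts per library. Kcnmb4, a beta subunit of the large-conductance BK channel, and Kcnmb4os2, its antisense transcript, both rose (1.17 ± 0.37 and 2.74 ± 0.60, SE, log2). They share 693 exonic bases on opposite strands, 20.8% of Kcnmb4 and 34.2% of Kcnmb4os2. How the counting used strand is not given in the sources used here, so reads from the shared stretch may have been counted for either. Of the 4465 exonic bases of Kcnk4 in GENCODE M21, 13.1% overlap Catsperz on the same strand. Its deposited gene length is 1715 bases, so this share need not hold for the exons that were counted.

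Genes of the chloride channel class, chosen by symbol and not all coding for chloride channels, fell in 7 of 9 cases (77.8%, against 47.5% of all tested genes). Ano9, Ano8 and Ano10 belong to the anoctamins, a family of chloride channels and lipid scramblases. Ano9, the most abundant, was at 11250, 10276 and 11078 normalised reads in controls and 5497, 6249, 7533 and 5926 in KA (-0.92 ± 0.14, SE, log2, adjusted p = 0.000292). Ano8 was at 2205, 1815 and 2144 in controls and 588, 783, 1085 and 636 in KA (-1.54 ± 0.21, SE, log2, adjusted p = 0.00017), and Ano10 at 1225, 1128 and 1184 in controls and 580, 637, 683 and 540 in KA (-1.08 ± 0.13, SE, log2, adjusted p = 7.57e-05). All 3 were lower in every KA library. Ano7 rose from 845, 651 and 521 to 1231, 1261, 1773 and 1279 (0.91 ± 0.21, SE, log2, adjusted p = 0.00244), with KA 3 the highest. Ano4 was near the limit of detection in controls, at 0.947, 0 and 3.21, and at 25.7, 10.1, 11.5 and 39.4 in KA. Its fitted log2 fold change was 3.63 ± 0.82 (SE, adjusted p = 0.00237) and 5.05 without control 3, and such a value rests on very few control reads.

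The other chloride genes fell together. Clca3a1, of a family of secreted regulators of chloride currents, went from 1598, 1516 and 1555 normalised reads to 564, 713, 876 and 844 (-1.18 ± 0.17, SE, log2, adjusted p = 0.0002). Clca2, a relative known from stratified epithelia, was at 3581 to 4373 in controls and 1851 to 3225 in KA (-0.75 ± 0.22, SE, log2, adjusted p = 0.00855). The plasma membrane channel Clcn2 fell by 0.80 ± 0.17 (SE, adjusted p = 0.00171) and the lysosomal chloride-proton exchanger Clcn7 by 0.57 ± 0.14 (SE, adjusted p = 0.00388) on the log2 scale. None of these 4 overlapped between groups.

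Other genes of the same pathways were taken from 6 lists and are read against all tested genes, of which 44.0% rose and 47.5% fell, with a median log2 fold change of 0.22. Glycerol is what aquaporin-3 carries besides water, and 6 of 8 tested glycerol genes rose (75.0%) and 2 fell, with a median log2 fold change of 1.27. Gk, the kinase that takes up glycerol into metabolism, was at 211, 304 and 232 normalised reads in controls and 3095, 1516, 786 and 1958 in KA (2.74 ± 0.41, SE, log2, adjusted p = 0.000449). Gpd1, which links glycerol to glycolysis, went from 40.7, 59.8 and 59.3 to 290, 301, 421 and 324 (2.52 ± 0.24, SE, log2, adjusted p = 2.52e-05). Mgll, the lipase that frees glycerol from monoacylglycerol, went from 2641, 5238 and 3220 to 13003, 14953, 11925 and 10662 (1.64 ± 0.22, SE, log2, adjusted p = 0.000179). The groups did not overlap for any of the 3, and 4 of 6 listed sebocyte markers rose beside them (sums of 21210 to 31930 in controls and 41440 to 54760 in KA), whose part was not tested.

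Calcium release and signalling genes were divided, with 8 of 15 tested lower (53.3%) and 6 higher (40.0%), shares near those of all tested genes, and a median of -0.57. The inositol trisphosphate receptor Itpr3, a release channel of the endoplasmic reticulum, was at 17094, 14633 and 15475 normalised reads in controls and 5888, 6205, 7852 and 7076 in KA (-1.35 ± 0.15, SE, log2, adjusted p = 5.15e-05). The calmodulin-dependent kinases Camkk1 (-1.81 ± 0.22, SE) and Camk1 (-1.19 ± 0.19, SE) fell as well. Among other calcium carriers 10 of 15 tested fell (66.7%) and 4 rose (median -0.98). The potassium-dependent sodium-calcium exchanger Slc24a3 went from 1648, 1514 and 1464 normalised reads to 136, 229, 369 and 346 (-2.64 ± 0.30, SE, log2, adjusted p = 8.19e-05). Mcoln3, a cation channel of endosomes and lysosomes, fell by 1.71 ± 0.45 (SE, log2, adjusted p = 0.00514).

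Chloride and cell volume genes fell in 11 of 18 tested cases (61.1%) and rose in 4 (median -0.69). The kinases Wnk2 (-2.53 ± 0.40, SE) and Wnk4 (-1.45 ± 0.23, SE), which control chloride cotransporters, and the cotransporter Slc12a5 (-1.80 ± 0.29, SE) had the largest falls by the naming rule. Regulators of sodium channels and pumps fell in 6 of 10 and rose in 3 (median -0.80). The mineralocorticoid receptor Nr3c2, known to drive epithelial sodium channel genes in kidney, went from 54.9, 37.1 and 36.9 normalised reads to 3.96, 4.51, 2.09 and 9.34 (-3.21 ± 0.45, SE, log2, adjusted p = 0.000193), and Fgf11, of a family that binds voltage-gated sodium channels, fell by 1.36 ± 0.25 (SE, log2, adjusted p = 0.000837). Nkain1, a partner of the sodium-potassium pump, was at 0.947, 0 and 1.60 in controls and 91.0, 31.5, 23.0 and 41.5 in KA (fitted 5.37 ± 0.78, SE, log2, adjusted p = 0.000223). Of other channels 7 of 8 tested fell (87.5%) and 1, the pannexin gene Panx3, rose (median -1.03). Panx3 went from 142, 221 and 144 to 414, 470, 425 and 312, while the pacemaker channel Hcn2 fell by 1.57 ± 0.46 (SE, log2, adjusted p = 0.00843) and the proton channel Otop3 by 1.28 ± 0.39 (SE, log2, adjusted p = 0.0115).

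**Figure D5:**
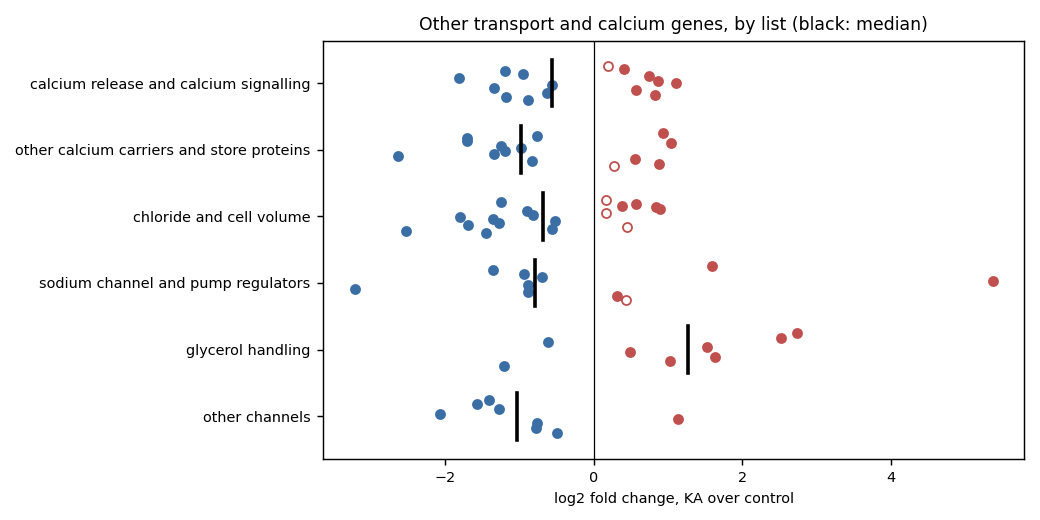
Log2 fold change of KA over control for tested genes of the 6 lists of related genes, with red for positive, blue for negative, open circles for an adjusted p of 0.05 or above and black bars for the list medians. The median lies right of 0 for glycerol handling alone, at 1.27, and between -1.03 and -0.57 for the other lists.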

How the data were processed

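The analysis started from 1 deposited table covering all libraries. Per the file headers it holds the authors' raw read counts per gene, normalized reads (a signal without a unit, each count divided by 1 size factor per library), the authors' mean signal, log2 fold change with its standard error, test score, and p-values before and after adjustment. The submitters' processing notes name fastp, STAR 2.6.1d, featureCounts 1.5.0-p3, DESeq2 1.40.2 and mm10, with no role or order. Per the labels' protocols, the library kit was NEBNext Ultra RNA. Strand setting and annotation are not given in the sources used here. Abca12 is not described here, and genes of the sex chromosomes were not set apart in the fits or lists.

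The deposited counts of all 7091 listed genes were fitted with edgeR 4.0.16 in R 4.3.3 (TMM factors, filterByExpr by group, glmQLFit with robust dispersion, glmQLFTest, Benjamini-Hochberg adjustment over all tested genes, threshold 0.05). The filter kept 6761 genes and left out 330. The listed genes had been selected on these libraries, so this refit describes them and is no independent test. Standard errors are on the log2 scale. Means and SDs are of normalized reads. The common biological coefficient of variation was 0.193. Each library came from 1 mouse. Lower bounds use a floor of 3 counts per library and cover counting error only. Within-library ratios used a pseudocount of 0.5 and a two-sided exact permutation test over 35 arrangements. The code was tested on simulated data.

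The members, gene lists, marker lists and gene pairs were chosen with earlier results of these data known. Members named with values were 17 with known roles in the epidermis and, per ion class, up to 3 higher and 3 lower of largest fold with a mean of at least 2 CPM of listed reads and no overlap between groups, 37 in all. A further 4 members stay in the counts but are not reported here. Other members, including Ano4, Ano9 and Kcnj16, were described after their values were seen, as were the distances between members. All 64 identifiers were found in GENCODE M21, 62 with the same start and end. For some members, such as Kcnk4 and Trpm3, the exonic bases there differ from the deposited gene length. Sample numbers in the titles recur in both groups, but same-numbered libraries did not deviate together (correlations of -0.202, 0.148 and -0.0913), so no block was used in the reported fit. Alternatives were RLE, upper quartile and the authors' size factors, other filters, DESeq2 1.42.0, limma-voom (limma 3.58.1), sex, sample number or run of animal numbers as terms, each library left out, a minimum fold, a wider adjustment and the authors' own calls.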

Additional observations from a re-analysis of the deposited data

Results flagged for a closer look

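In 3 genes, KA 3 stood apart from the other KA libraries: its gap to the nearest of them, as a share of the range of the 4, was above Dixon's 95% critical value for 4 samples. The shares were 0.911 for Ano7, 0.895 for Scnn1g and 0.84 for Kcng4. For Scnn1g and Kcng4, KA 3 lay on the side of the controls, and for Ano7 it lay farther from them than the other KA libraries. Of 41 such checks, chance gives about 1 in 20, or 2.1.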

How the results depend on the processing

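Over 20 fits, no member changed direction and 56 passed in each fit that tested them. The others were Atp1b3, Kcnab2, Kcnk13, Kcnk4, Kcnk6, Scnn1a, Trpv2 and Trpv3. All members had already been called by the authors on these libraries, so such stability would hold for many listed genes. The same counts over all listed genes are not given here, and these counts show no trait of the members. For the 37 named members, 694 of 702 comparisons with an alternative kept direction and side of the threshold, 5 no longer passed and 3 now passed, a minimum fold left aside. With a replicate block by sample number 20 members rose and 38 fell, and only Atp1b3 among the named members lost its call (0.32, adjusted p = 0.0782). The sample numbers did not pair the libraries: only control 2 correlated best with the KA library of its own number. Leaving out each library gave 19 to 23 members higher and 36 to 39 lower. Other settings gave 20 to 24 higher and 36 to 40 lower, and a log2 fold change of at least 1 gave 15 and 27. Kcnab2 and Kcnk6 passed with the authors' size factors (adjusted p = 0.0199 and 0.0148), and Trpv3 did too (0.38, adjusted p = 0.018) and without control 1 (0.36, adjusted p = 0.0418). When 1 library was left out, the difference in log2 ratio ran from 1.46 to 1.72 for Stim2/Stim1 and from 0.424 to 0.675 for Aqp3/Aqp9. Neither reached an adjusted p below 0.1 in the exact permutation test, since fewer arrangements remain. Many large falls rest on few reads, with 9 members below 1 normalised read per kilobase in KA.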
